A study of Homo sapiens with 23 samples.

Results

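Chromatin loops at 10 genes of insulin and insulin-like growth factor (IGF) signalling were described in T47D, an established cell line from a human breast tumour that is rich in progesterone receptor. The genes were the receptors IGF1R, INSR and IGF2R, the receptor substrates IRS1 and IRS2, and the binding proteins IGFBP2, IGFBP3, IGFBP4, IGFBP5 and IGFBP6. A listed loop was assigned to a gene when either of its 5 kb bins overlapped the gene widened by 10 kb on each side. By this rule the genes held 13 of the 9591 loops of the T30 library and 24 of the 7075 loops of the T0 library. The loops came from HiChIP, an assay that ligates fragments held in contact inside the nucleus and then pulls down those bound by a chosen protein, here the progesterone receptor (PR). The 2 libraries were 1 sample labelled T30 and 1 labelled T0, both of T47D cells kept in serum-free medium before treatment, per the labels' protocols. The T30 title carries the term PR5020, which the labels do not spell out; the protocol covers treatment with R5020, a synthetic progestin, or with progesterone. The labels give these libraries neither an agent in so many words, nor a dose, nor the unit of the time.

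With 1 library a condition, no difference given here could be checked against replicates, and the intervals hold counting error alone. Totals were 135538 contacts over the T30 list and 127457 over the T0 list, where a contact is a read pair that joins the 2 bins of a loop. The T30 list held 1.36 loops per T0 loop. Both lists ended at a q-value of 0.05, but the largest p-value listed was 2.84e-05 in T30 and 0.000233 in T0. Sequencing depth is unknown, since the totals cover listed loops alone. The lists hold no RNA, so the cell type could not be checked by expression. Of the luminal breast genes KRT8, KRT18, KRT19, GATA3, FOXA1, ESR1, PGR and EPCAM, 5 of 8 had a loop in T30 and 6 in T0, with ESR1 and PGR at 0 in both libraries and EPCAM at 0 in T30; over all protein-coding genes 32.2% had a loop in T30 and 27.3% in T0.

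IGF1R and INSR are receptor tyrosine kinases that bind the IGFs and insulin, and IRS1 and IRS2 are docking proteins that pass their signal to the PI3K and MAPK pathways. IGF2R clears IGF2 from the cell surface and has no kinase. The IGFBPs are secreted proteins that bind the IGFs and so hold them away from, or deliver them to, IGF1R. In breast epithelium this system drives growth and survival, and IRS2 is known to respond to progestins in breast cancer cells.

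Start sites that lay in a loop's own bin were those of IGF1R, IGFBP3, IGFBP4 and IGFBP5. The 250 bases before each of these starts are shown, from the RefSeq promoter table (GRCh38.p14), to set the sequence of the looped promoters beside the loops described next. They are written 5′ to 3′ on the gene's strand. Capitals mark GGGCGG, the GC box, or TATAAA, on either strand, with CCGCCC being the GC box on the opposite strand.
IGF1R (chr15:98648289-98648538, plus strand): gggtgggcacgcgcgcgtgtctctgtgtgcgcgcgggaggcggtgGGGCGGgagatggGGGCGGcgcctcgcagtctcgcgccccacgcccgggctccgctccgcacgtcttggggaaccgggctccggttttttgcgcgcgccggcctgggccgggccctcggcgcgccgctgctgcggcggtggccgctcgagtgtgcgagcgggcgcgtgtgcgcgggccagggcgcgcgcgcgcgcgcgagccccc
IGFBP3 (chr7:45921273-45921522, minus strand): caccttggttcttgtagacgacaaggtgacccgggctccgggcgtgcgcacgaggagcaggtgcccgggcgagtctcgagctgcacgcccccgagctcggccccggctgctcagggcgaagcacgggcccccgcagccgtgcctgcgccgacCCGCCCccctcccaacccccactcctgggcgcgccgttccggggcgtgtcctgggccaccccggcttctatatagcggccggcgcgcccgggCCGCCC
IGFBP4 (chr17:40443200-40443449, plus strand): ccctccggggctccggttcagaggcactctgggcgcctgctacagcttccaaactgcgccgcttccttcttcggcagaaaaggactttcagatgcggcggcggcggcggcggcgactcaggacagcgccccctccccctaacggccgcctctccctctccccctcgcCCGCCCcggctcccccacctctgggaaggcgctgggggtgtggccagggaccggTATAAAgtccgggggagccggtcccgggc
IGFBP5 (chr2:216695550-216695799, minus strand): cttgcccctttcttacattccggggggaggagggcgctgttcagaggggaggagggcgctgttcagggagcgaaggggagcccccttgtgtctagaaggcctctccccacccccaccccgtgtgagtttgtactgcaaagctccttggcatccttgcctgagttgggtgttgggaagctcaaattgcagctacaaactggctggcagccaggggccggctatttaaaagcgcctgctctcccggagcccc
The GC box occurred in the IGF1R, IGFBP3 and IGFBP4 windows and TATAAA in the IGFBP4 window alone of these. The GC box was not particular to looped promoters. It occurred at 9 of the 10 genes, among them IGF2R, IRS1 and IRS2, which had no loop in either library. Over 22140 windows of 250 bases before annotated starts of protein-coding genes, 53.7% held GGGCGG and 9% held TATAAA. None of the 4 windows held TGTTCT, the half-site of the hormone response element shared by the progesterone, androgen and glucocorticoid receptors, on either strand, where 9.83% of all windows did. Among the 12 windows of the 10 genes, 2 held it, both of them among the 3 windows of IGFBP2.

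Of the 10 genes, 7 had a listed loop in T30 and 7 in T0, and these were the same 7 genes. The background was 32.2% of 19974 protein-coding genes in T30, 27.3% in T0 and 17.9% in both. All 5 binding protein genes among the 10 had loops in both libraries, as did 2 of the 3 receptor genes, and neither substrate gene had any. This rested on the 10 kb margin. With genes not widened, 5 genes had a loop in T30 and 6 in T0, with INSR and IGFBP2 at 0 in T30 and IGFBP6 at 0 in T0. With the margin, no gene had more loops in T30, 3 had fewer and 7 were equal, 3 of those 7 at 0. Over all protein-coding genes 20.8% had more loops in T30 and 15.4% had fewer. With both lists held to the smaller of their largest p-values, a setting chosen after seeing the data, the tally turned: IGF1R, IGFBP2, IGFBP4, IGFBP5 and IGFBP6 had more loops in T30, IGFBP3 alone had fewer and 4 genes were equal, against 25% with more and 8.19% with fewer over all genes. With q under 0.01, 4 had more and 2 had fewer, against 14.5% and 12.2%. At the full lists the difference between the libraries was largest at IGFBP3, with 1 loop in T30 and 7 in T0, followed by INSR with 1 and 4. These were the 2 genes with at least 3 loops and 2-fold fewer in T30, a change seen at 2.53% of all genes; 0 of the 10 had as many more in T30, against 4.59% of all genes. At the common largest p-value 0 of the 10 had such a drop and 2 had as many more in T30, IGF1R and IGFBP5, where 0.736% and 5.96% of all genes did. The stricter q kept 0 with such a drop and 1 with as many more, IGFBP5, where 1.55% and 2.5% of all genes did. The median difference of the 10 genes was 0 loops, and that of the 8301 genes with a loop in either library was 1.

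**Figure D1:**
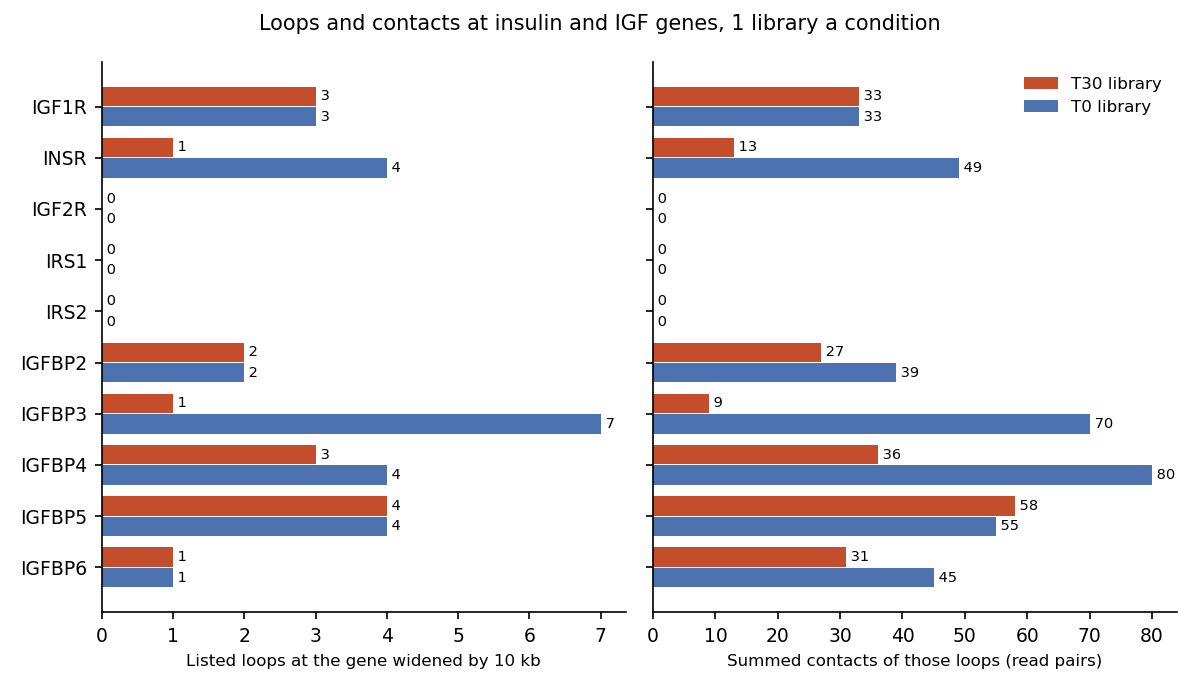
Listed loops (left, number) and summed contacts (right, read pairs) at each gene widened by 10 kb, in the T30 library (upper bar) and the T0 library (lower bar), with 1 library each and no error bar. IGFBP3 and INSR show the largest gaps in loops, with 1 and 7 and with 1 and 4, while IGF2R, IRS1 and IRS2 are at 0 in both.

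Counted once where 2 genes share them, the loops numbered 13 in T30 and 24 in T0, or 1.36 and 3.39 per 1000 listed loops. Their contacts summed to 180 and 344, and they reached 14 and 25 distinct partner bins. The T30 to T0 ratio of loops was 0.542 (exact conditional 95% interval 0.253 to 1.11). This direction turned at stricter thresholds: at q under 0.01 the loops numbered 8 in T30 and 6 in T0, and at the common largest p-value 13 and 6. The whole lists then held 5500 and 4284 loops, and 9591 and 4270. The direction held with lists of equal length, at 11 and 24 loops, and with at least 10 contacts, at 11 and 17. Of the 24 T0 loops, 18 had a p-value above the largest listed in T30.

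**Figure D2:**
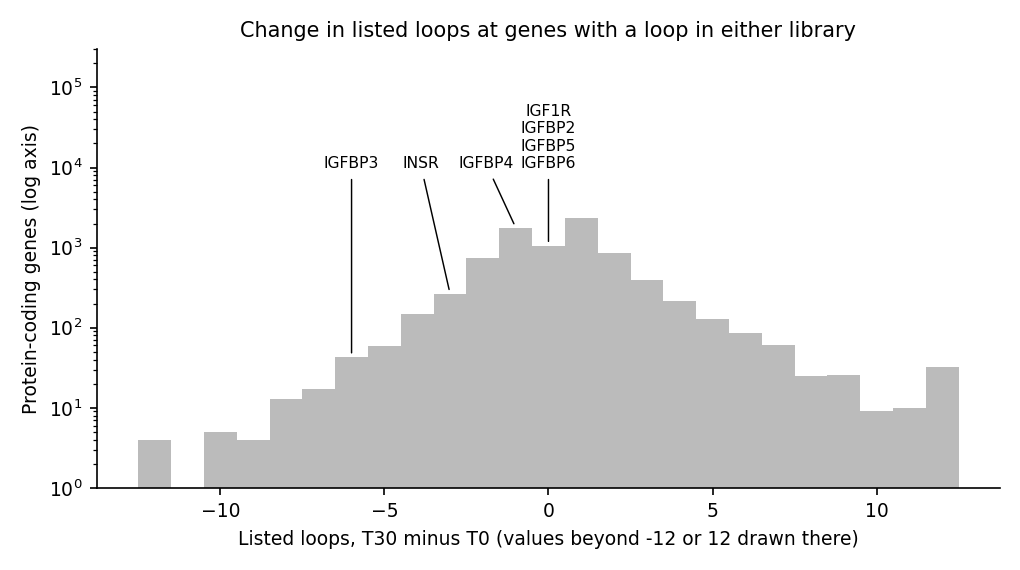
Number of protein-coding genes (log axis) by their change in listed loops, T30 minus T0, over the 8301 genes with a loop in either library; the 7 insulin and IGF genes with loops are placed at their own change. IGFBP3 lies at -6, INSR at -3, IGFBP4 at -1 and the other 4 genes at 0.

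Among the receptors, IGF1R had 3 loops in each library with 33 contacts in each, but they did not lie at the same bins. The gene spans chr15:98648539-98964530 (hg38, plus strand), and its start lies in the bin chr15:98645001-98650000. In T30 that bin was joined by 12 contacts to a bin 219 kb downstream of the start, inside the gene, while in T0 it was joined by 10 contacts to a bin 206 kb upstream, outside any gene. A T0 loop of 11 contacts between the next bin and one 209 kb downstream came close to the T30 loop, and their merged ranges coincided at the start of the gene but only touched at the far end. A second T30 loop inside the gene spanned 25 kb and had 12 contacts. Both libraries joined the gene to the bin chr15:99055001-99060000, which lies beyond the gene's end and 45.1 kb from SYNM, an intermediate filament gene, with 9 contacts in T30 and 12 in T0. The gene's end of that loop was 214 kb downstream of the start in T30 and 284 kb in T0. At the common largest p-value IGF1R had 3 loops in T30 and 0 in T0, and at q under 0.01 it had 1 and 0. Apart from the gene's own loops, the lists held 1 loop in T30 and 6 in T0 within 500 kb.

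INSR (chr19:7112265-7294414, minus strand) had 1 loop in T30 and 4 in T0, with 13 and 49 contacts. All 4 T0 loops met in the bin chr19:7145001-7150000, which lies 147 kb into the gene, and the T30 list had no loop there or within 20 kb of it. From this bin the T0 loops ran back past the start of the gene, to bins 8.09, 18.1, 38.1 and 48.1 kb upstream of it, with 10, 10, 10 and 19 contacts. The T30 loop of 13 contacts shared the farthest of these bins, chr19:7340001-7345000, 3.94 kb from ARHGEF18, a guanine nucleotide exchange factor gene. Its other end was a bin 7.27 kb beyond the 3′ end of INSR, so no T30 loop had an end inside the gene body itself. The start-site bin of INSR held 0 loop ends in either library. The ratio of loops was 0.25 (exact 95% interval 0.00508 to 2.53), which includes 1. At q under 0.01 and at the common largest p-value, INSR had 1 loop in each library. Within 500 kb of the gene, its own loops apart, there were 2 loops in T30 and 7 in T0; the part of this in the result was not tested.

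IGF2R, IRS1 and IRS2 had 0 loops in either library, as did 58.4% of protein-coding genes. The nearest listed bins were far from them. For IGF2R on chromosome 6 they lay 1044 kb away in T30 and 839 kb in T0, and for IRS2 on chromosome 13 they lay 918 kb away in T30 and 673 kb in T0. IRS1 on chromosome 2 was the most isolated, with the nearest listed bin 2446 kb away in T30 and 3205 kb in T0. Within 500 kb of each of these genes the lists held 0 loops, so their surroundings had none either. An unlisted contact is one that did not pass the authors' threshold at this unknown depth and need not be missing from the cells.

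IGFBP3, which encodes the main carrier of IGFs in blood, had the most loops of the 10 genes in T0, with 7, and 1 loop in T30. The gene is short (chr7:45912245-45921272, minus strand), and all 7 T0 loops met in the bin chr7:45920001-45925000 that holds its start, whose upstream sequence is printed above. Of the 15813 genes with an annotated start, 0.0696% had 7 or more loops at a start-site bin in T0. By the widened-gene rule, 1.43% of all protein-coding genes had 7 or more T0 loops, and 0.436% had at least 6 fewer in T30. IGFBP3 was set beside these shares because its T0 count was the highest of the 10 genes. The T0 partners fell into a near and a far group, all upstream of the gene. The near group had spans of 370, 420 and 430 kb with 9, 9 and 19 contacts. The far group had spans of 1165, 1250, 1260 and 1270 kb with 10, 7, 8 and 8 contacts, and its bins lay between 80.2 and 185 kb from TNS3, which encodes a tensin of focal adhesions. The T30 list held 1 loop of 9 contacts, spanning 435 kb, to the same near bin at chr7:46350001-46355000. Its gene end was the next bin, chr7:45915001-45920000, and its merged range of 2 bins covered the start-site bin too. The near bin lay 429 kb from any protein-coding gene, IGFBP3 being the closest. It had 1 loop in T30 and 5 in T0, and 1 of the 5 ended in IGFBP1, the neighbouring binding protein gene, with 11 contacts.

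The contacts at IGFBP3 set limits on this difference. The loop found in both libraries had 9 contacts in T30 and 19 in T0, a ratio of 0.474 (exact 95% interval 0.189 to 1.10), where the median over 1389 shared loops was 0.667. The other 6 T0 loops had 7 to 10 contacts. Multiplied by that median ratio they would be 4.67 to 6.67 contacts, under the lowest number listed in T30 at those spans, which was 8. Without scaling, only the loop of 7 contacts falls under 8. Of the T0 loops at the 10 genes that matched no T30 loop, 7 reached the T30 minimum after the same multiplication. Another 13 did not, and 1 had no T30 loop of like span listed. In the other direction, all 10 unmatched T30 loops at these genes reached the T0 minimum when divided by the median ratio. That division raises every T30 count. The same shares over the whole lists were not computed. At q under 0.01 IGFBP3 had 0 loops in T30 and 2 in T0, and at the common largest p-value 1 and 2. Apart from the gene's own loops, the lists held 0 loops in T30 and 4 in T0 within 500 kb. The part of the threshold and of the neighbourhood in the difference was not tested.

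**Figure D3:**
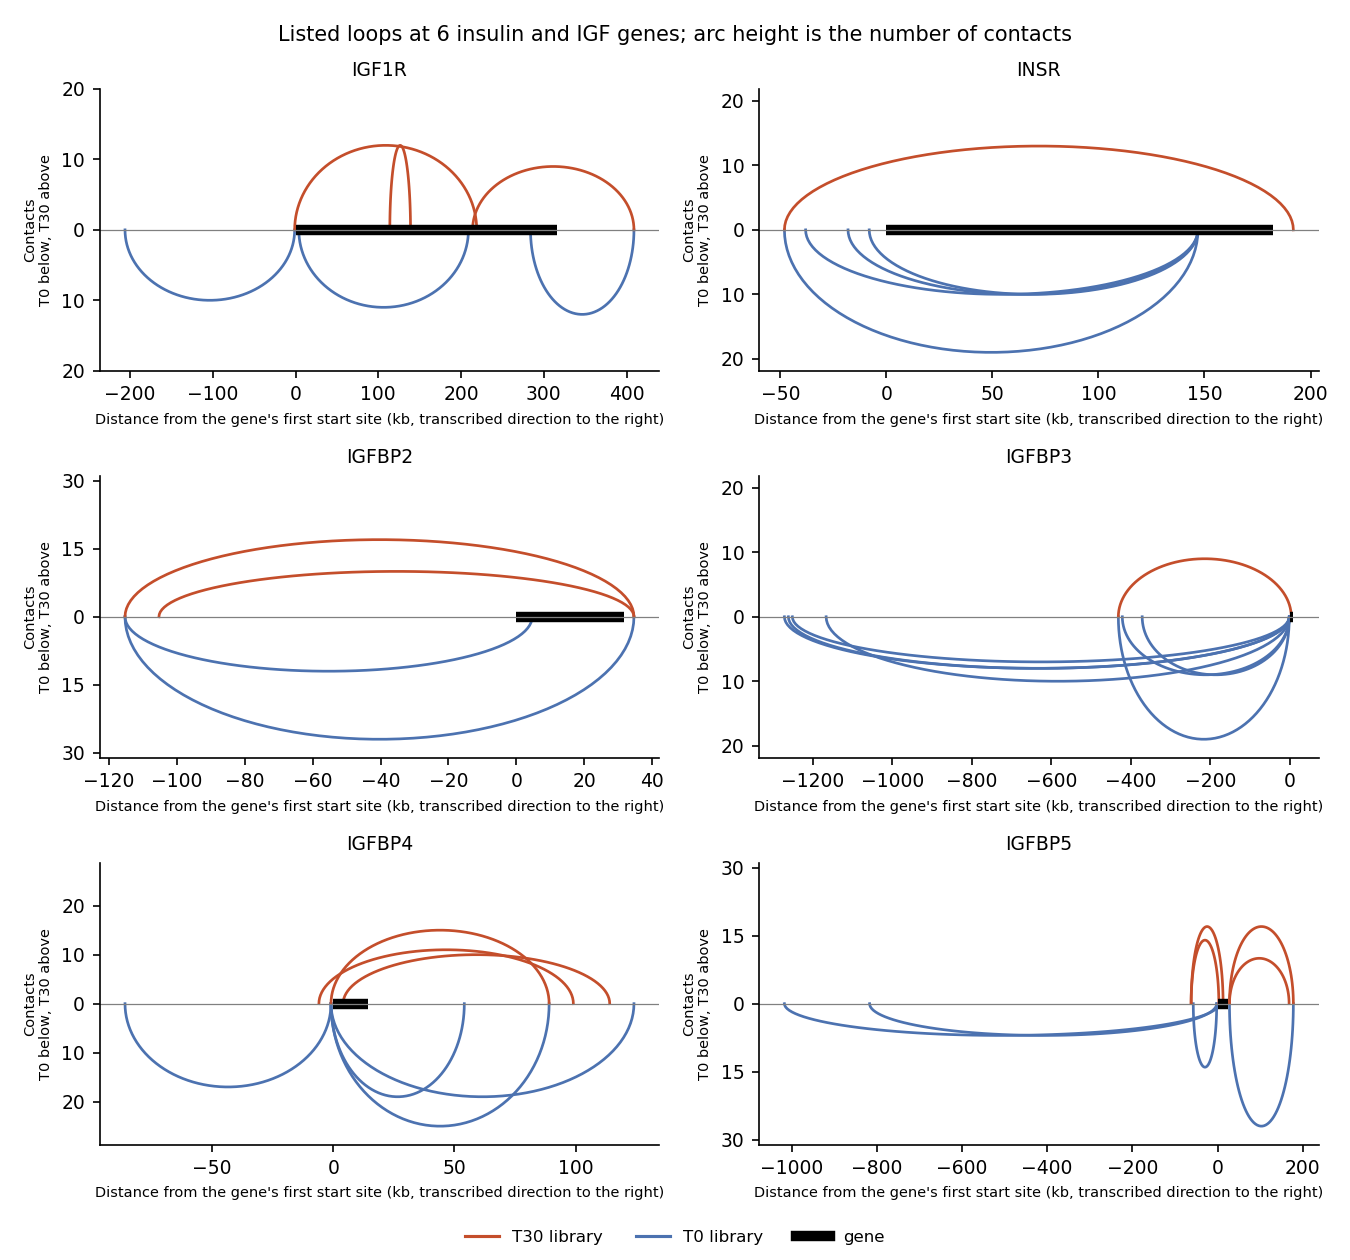
Listed loops at 6 genes, drawn as arcs over the distance from each gene's first start site (kb, transcribed direction to the right; bar, gene), with height in contacts; T30 loops rise above the line and T0 loops hang below it. The T0 loops of IGFBP3, INSR and IGFBP4 each leave from 1 point, and the arcs past 500 kb are all T0 loops, 4 at IGFBP3 and 2 at IGFBP5.

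IGFBP4 (chr17:40443450-40457725, plus strand), whose product inhibits IGF action, had 3 loops in T30 and 4 in T0, with 36 and 80 contacts. All 4 T0 loops met in the start-site bin chr17:40440001-40445000, whereas the 3 T30 loops left from that bin and from the bins on either side of it. In both libraries the start-site bin was joined to chr17:40530001-40535000, an intergenic bin 89.0 kb downstream of the start, with 15 contacts in T30 and 25 in T0 (ratio 0.6, exact 95% interval 0.294 to 1.18). Both libraries also reached CCR7, a chemokine receptor gene, with 10 contacts in T30 and 19 in T0 at bins 10 kb apart. T0 alone listed loops from the start to RARA, the retinoic acid receptor alpha gene, with 17 contacts, and to TNS4, another tensin gene, with 19. Neither of these loops passed q under 0.01 or the common largest p-value. The third T30 loop, of 11 contacts, ended 8.77 kb from CCR7. At q under 0.01 the gene had 1 loop in T30 and 2 in T0, and at the common largest p-value 3 and 2.

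IGFBP2 and IGFBP5 are neighbours on chromosome 2, with 7.67 kb between their 3′ ends, and they share loops. The bin between them, chr2:216665001-216670000, was joined in both libraries to chr2:216515001-216520000, an intergenic bin 10.9 kb from the ribosomal protein gene RPL37A, with 17 contacts in T30 and 27 in T0. This loop had identical bins in the 2 libraries and a ratio of 0.63 (exact 95% interval 0.322 to 1.2). In T30 the bin between the genes had a second loop of 10 contacts to chr2:216525001-216530000. In T0 the second loop of IGFBP2 ran instead from the bin 4.67 kb downstream of its first start to the same RPL37A-side bin, with 12 contacts. IGFBP2 (chr2:216632828-216664436, plus strand) thus had 2 loops in each library, with 27 and 39 contacts.

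IGFBP5 (chr2:216672105-216695549, minus strand), a binding protein known from the involuting mammary gland of mice, had 4 loops in each library, with 58 contacts in T30 and 55 in T0. Besides the shared loops, its T30 loops of 14 and 17 contacts left from bins 3.05 and 13.0 kb into the gene, and both ended in the bin chr2:216755001-216760000, 62 kb upstream of the start. In T0 the start-site bin was joined by 14 contacts to the bin next to it, 57.0 kb upstream. The other T0 loops, of 7 contacts each, spanned 815 kb from the start-site bin and 1020 kb from the next bin. In T30 no loop of the gene spanned more than 150 kb. At the common largest p-value, and likewise at q under 0.01, IGFBP5 had 4 loops in T30 and 1 in T0.

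The upstream bin of IGFBP5 was itself a hub in T30, picked for its number of loops. The share of all bins with as many loops was not computed. This bin had 12 loops with 147 contacts in T30 and 1 loop with 9 contacts in T0, and within 20 kb on each side the lists held 12 and 2 loops. All other ends lay on chromosome 2, from 75 kb towards IGFBP5 to 955 kb on the other side, and besides the 2 in IGFBP5 none lay in a protein-coding gene. The loop with most contacts, 20, reached a bin 335 kb away at chr2:217090001. The farthest, of 8 contacts, ended at chr2:217710001, the bin that IGFBP5 itself had been joined to in T0. At q under 0.01 the hub had 6 loops in T30 and 0 in T0, and at the common largest p-value 12 and 0. The start-site bin of IGFBP3 ran the other way in the full lists and at these thresholds, with 0 loops in T30 and with 7, 2 and 2 in T0. Within 20 kb of it the full lists held 1 loop in T30, the one from the next bin, and 8 in T0.

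**Figure D4:**
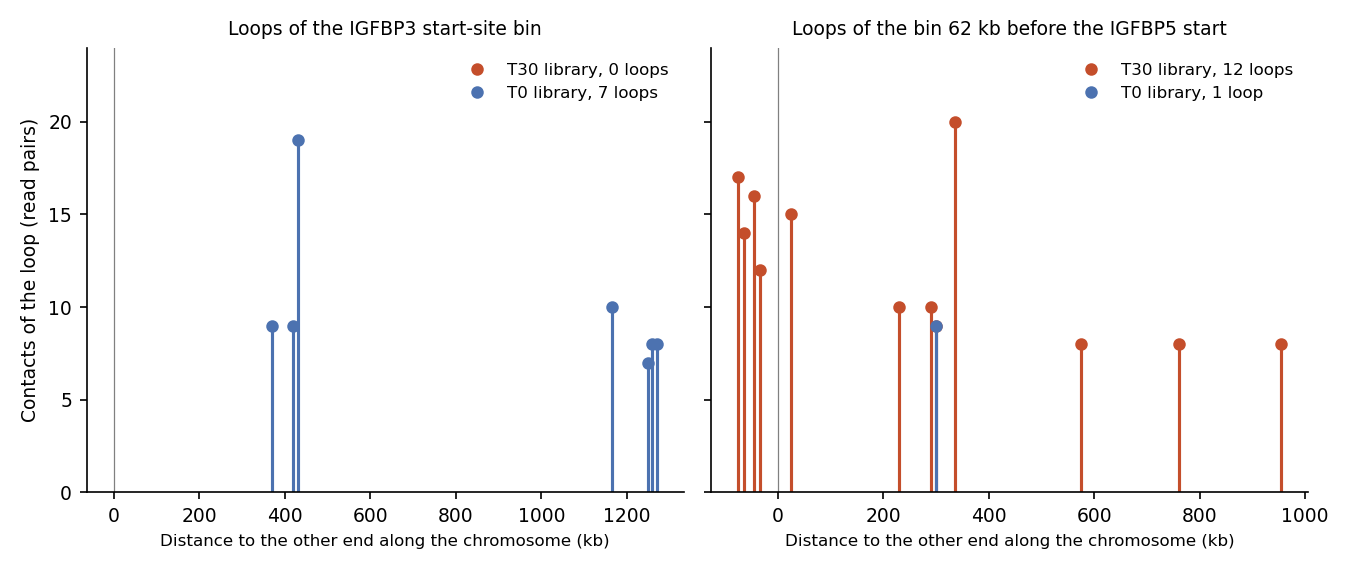
Contacts of each listed loop (read pairs) against the distance to its other end along the chromosome (kb), for the IGFBP3 start-site bin (left) and the bin upstream of IGFBP5 (right). The left panel holds 0 loops of T30 and 7 of T0, and the right panel 12 of T30 and 1 of T0, whose point of 9 contacts at 300 kb covers a T30 point of the same value.

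IGFBP6 (chr12:53097667-53102340, plus strand), which encodes a binding protein with preference for IGF2, had 1 loop in each library. Both ran to SPRYD3 on the upstream side, but not at the same bins. The T30 loop spanned 35 kb, had 31 contacts and ended in a bin that holds IGFBP6 and part of SOAT2, an enzyme gene of cholesterol ester synthesis. The T0 loop spanned 15 kb, had 45 contacts and ended 2.67 kb before IGFBP6, within the 10 kb margin. The T30 list holds 0 loops under 20 kb and the T0 list 574; whether a limit on span was set is not given in the labels. At the common largest p-value IGFBP6 had 1 loop in T30 and 0 in T0. Its own loops apart, there were 31 loops in each library within 500 kb.

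Per length of widened gene, the binding protein genes carried the densest loops in both libraries. In T0 IGFBP3 had 24.1 loops per 100 kb, IGFBP4 11.7 and IGFBP5 9.21, against 1.98 for INSR and 0.893 for IGF1R. In T30 IGFBP5 had 9.21 loops per 100 kb, IGFBP4 8.75 and IGFBP3 3.44, against 0.893 for IGF1R and 0.495 for INSR. IGFBP6 and IGFBP2 had 4.05 and 3.88 in each library. These densities depend on length: the widened binding protein genes measured 24.7 to 51.6 kb, against 202 kb for INSR and 336 kb for IGF1R. Thus 1 loop gave 4.05 at IGFBP6, while 3 loops gave 0.893 at IGF1R. Loops shared by IGFBP2 and IGFBP5 count at both. Density was not set against genes of like length. Exact Poisson 95% intervals of the underlying counts ran from 2.81 to 14.4 for 7 loops and from 1.09 to 10.2 for 4 loops, so neighbours in this order overlapped. At start-site bins, 2 of the 10 genes had a loop end in T30 and 4 in T0, where the background was 9.95% and 9.6% of genes with an annotated start.

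Spans and sharing followed the same loci. The median span was 110 kb over the 13 T30 loops and 190 kb over the 24 T0 loops, against 80 and 190 kb over the whole lists. None of the T30 loops and 6 of the T0 loops spanned 500 kb or more. The whole lists differed in the same direction. Spans from 500 kb to below 1000 kb made up 2.85% of all T30 loops and 10.5% of all T0 loops. Spans of 1000 kb or more made up 0.334% and 2.19%. Loops whose merged ranges overlapped a loop of the other library at both ends numbered 3 of 13 in T30 and 3 of 24 in T0, or 23.1% and 12.5%, where the whole lists had 16.4% and 22.2%. These 3 were the IGFBP3, IGFBP4 and IGFBP2 to IGFBP5 loops described above. Each shared loop was set against the median ratio by an exact binomial test, two-sided, and p-values were adjusted by Benjamini-Hochberg over all 1389 shared loops. This exact test compares 2 libraries and not 2 conditions, and 0 of the 3 passed (adjusted p = 1 for each). Over all shared loops 1.58% were called higher in T30 and 0.072% lower, or 22 and 1 loops. Scaled by summed contacts in place of the median ratio, the split was 6 higher and 127 lower, and with no scaling 6 and 41, with 0 of the 3 called in either. The scaled log2 ratios of T30 to T0 were -0.49 at IGFBP3 (95% interval -1.82 to 0.72), -0.15 at IGFBP4 (-1.18 to 0.83) and -0.08 at the loop between IGFBP2 and IGFBP5 (-1.05 to 0.85), and each interval includes 0. None of the 3 passed an unadjusted p of 0.05.

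**Figure D5:**
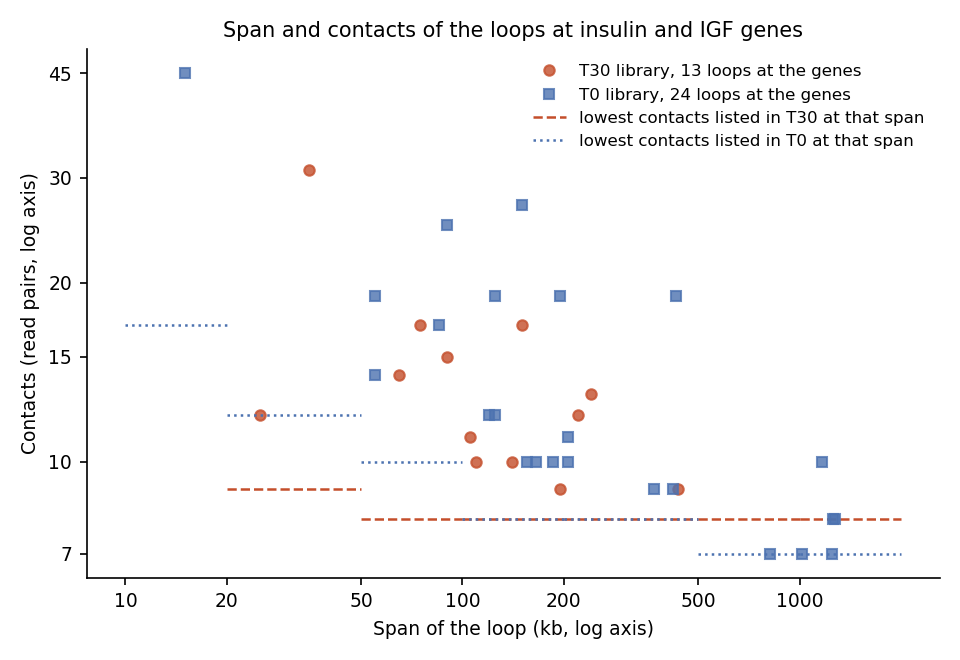
Contacts (read pairs, log axis) against span (kb, log axis) of the loops at the insulin and IGF genes in T30 (circles) and T0 (squares), with the lowest number of contacts that each list holds in a span class as a line. T0 points past 500 kb have 7 to 10 contacts, and the T30 line lies at 8 there.

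The wider pathway was described by 62 further genes. Of these, 25 had a loop in T30 and 21 in T0, or 40.3% and 33.9%, and 18 had one in both, against 32.2%, 27.3% and 17.9% of all protein-coding genes. More loops in T30 were listed for 11 genes and fewer for 10, or 17.7% and 16.1%, near the 20.8% and 15.4% of all genes, with a median difference of 0. By at least 3 loops and 2-fold, 2 had more and 3 had fewer, where 4.59% and 2.53% of all genes did. At the common largest p-value 18 had more and 9 fewer, or 29% and 14.5%, against 25% and 8.19% of all genes. At q under 0.01 the tally went the other way. There 9 had more and 12 fewer, or 14.5% and 19.4%, against 14.5% and 12.2% of all genes. PIK3CA and PIK3CB, which encode alternative catalytic subunits of PI3K, were the 2 with more, with 4 and 1 loops and with 4 and 0 loops in T30 and T0. PIK3R1, a regulatory subunit gene of PI3K, had 1 and 7, whereas PIK3R2, another, had 2 and 0. At the common largest p-value PIK3CA had 4 and 1, PIK3CB 4 and 0, PIK3R1 1 and 5 and PIK3R2 2 and 0. At q under 0.01 PIK3CA had 2 and 1, PIK3CB 1 and 0, PIK3R1 1 and 5 and PIK3R2 0 and 0. Neither PIK3CA nor PIK3CB then met the rule of 3 loops and 2-fold. GRB2, an adaptor between receptors and RAS, had 4 and 10, and STC2, a stanniocalcin that inhibits IGFBP proteolysis, had 0 and 5. At the common largest p-value GRB2 had 4 and 7 and STC2 0 and 3. At q under 0.01 GRB2 had 3 and 7 and STC2 0 and 3. GRB7, an adaptor gene, had 5 and 4, INSRR, an orphan relative of INSR, 4 and 2, and EIF4EBP1, a translational repressor gene, 4 and 2. GRB10, an inhibitory adaptor gene, had 2 and 0. IGFALS, a subunit gene of the circulating IGF complex, had 1 and 3, and PTPN1, a phosphatase gene, had 3 in each. By arm, ligands, carriers and proteases had loops at 3 of 11 genes in T30 and 5 in T0, and adaptors and phosphatases at 6 of 12 and 5. The PI3K, AKT, mTOR and FOXO arm had loops at 14 of 30 genes in T30 and 10 in T0, and the RAS and MAPK arm at 2 of 9 and 1.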

How the data were processed

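Loops were taken from the authors' deposited lists, 1 for T30 and 1 for T0, whose file names give FitHiC, a q threshold of 0.05 and merging of near contacts. The submitters' processing notes name Bowtie, hg38 and GRCh38; their roles, the versions, the settings and any pooling of samples are not given in the sources used. The authors deposited contacts as counts without normalization. Each loop carries a p-value and a q-value, both from the authors, per the file headers. A deposited fraction per merged cluster entered no result. The other 21 of the 23 samples were not analysed here.

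Gene positions came from RefSeq (GRCh38.p14) for 19974 protein-coding genes on chromosomes 1 to 22 and X, and starts and strands from its promoter table, which holds 15813 of them. All 10 members matched. Partners are distinct bins at the other end of each end in the widened gene, so a loop inside a gene adds 2. Shared loops had merged ranges overlapping by at least 1 bp at both ends and were paired nearest first. The exact binomial test called loops at an adjusted p under 0.05. Genes were called at 2-fold and at least 3 loops. Intervals treat loops and read pairs as independent, although loops share ends, so they may be too narrow. Named genes were the members, the genes at the ends of their 3 loops with most contacts or at their hubs, and the pathway genes with most loops or the largest change; genes named as nearest to an intergenic end were chosen after their values were seen. One pathway gene that this rule names is not reported here. Members, lists and tests were chosen with earlier results of these data known. Other settings were gene width, threshold, contacts, list length, span, end definition and scaling. Steps were tested on simulated data. Software was scipy 1.17.1, pandas 2.3.3, numpy 2.4.6 and, for plots, matplotlib 3.10.9, under Python 3.11.15.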

Additional observations from a re-analysis of the deposited data

How the results depend on the processing

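The direction of the summed loops, contacts and partner bins turned at stricter thresholds and held with lists of equal length. At q under 0.01 the T30 to T0 ratio turned to 1.33 for loops, 1.08 for contacts and 1.33 for partner bins. With both lists held to the smaller of their largest p-values, chosen after seeing the data, it turned to 2.17, 1.51 and 2.33, the IGFBP4 difference turned to 1 loop more in T30, and 18 pathway genes in place of 11 had more loops in T30. Of the 10 genes, 0 had more loops in T30 and 3 had fewer; these numbers were 5 and 1 at the common p, 4 and 2 at q under 0.01, 1 and 5 with genes not widened, 2 and 4 with 25 kb margins, 0 and 5 at start-site bins, 1 and 3 with 2.5 kb margins or spans of at least 20 kb, and 1 and 4 with at least 10 contacts. Both settings shorten the T0 list by construction, and the first the T30 list too. With start-site bins and 1 bin on either side in place of the widened gene, the ratio of contacts was 0.398 in place of 0.523. With genes not widened, 6 pathway genes in place of 10 had fewer loops in T30, and at q under 0.01, 14 in place of 25 had a loop in T30. With both bins within 10 kb, 7 loops at the members in place of 3 were shared, and 0 passed the test. The cause of these changes was not tested. Over all shared loops, 5 were called higher and 0 lower with identical bins alone. The other settings kept the direction of the ratios. No paired analysis was possible because each condition is 1 library.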

Other observations

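The 4 tensin genes, a group chosen after the partners were seen, lie on the chromosomes of the binding protein loci. IGFBP4 and TNS4 were 18.1 kb apart, IGFBP6 and TNS2 33.3 kb, IGFBP5 and TNS1 1104 kb, and IGFBP3 and TNS3 1354 kb. TNS3 had 10 loops in T30 and 6 in T0, TNS2 had 3 and 0, TNS4 had 0 and 2, and TNS1 had none in either library. A loop joined a binding protein gene to a tensin gene at 1 of these loci, IGFBP4 to TNS4 in T0. That loop did not pass q under 0.01 or the common largest p-value. The SPRYD3 bin that met IGFBP6 in T30 also met TNS2, with 20 contacts, and RARG, a retinoic acid receptor gene, with 10; it had 3 loops in T30 and 0 in T0, but within 20 kb the lists held 3 loops with 61 contacts in T30 and 2 with 57 in T0.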
